A study of Mus musculus with 28 samples.

Results

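The hearts of control mice given WY14643 were compared with the hearts of untreated control mice, over all genes that the array reads. The members were the 7 arrays titled as controls with WY14643 and the 7 titled as controls without it, 14 of the 28 arrays of the series, and they were chosen by these titles alone. The other 14 arrays hold untreated del337TR hearts and del337TR hearts given WY14643, 7 of each. The name del337TR stands for a mutant thyroid hormone receptor with a deletion, and these arrays are used here only to ask whether a difference seen in controls was also there. Each array read total RNA from frozen heart tissue of 1 sample, so the cell types in it were measured together. Signals of the atrial light chain Myl4 differed widely between arrays, from 106.9 to 9489 in untreated and from 134.4 to 8125 in treated controls. The dose, route and duration of WY14643, the vehicle, and the age and background of the mice are not stated in the labels.

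WY14643 is a synthetic ligand of PPARalpha, a nuclear receptor that binds DNA as a dimer with RXR and switches on genes for the uptake, transport and oxidation of fatty acids. The heart takes most of its fuel from fatty acids and has abundant PPARalpha. Among the genes known as its targets are Pdk4, which holds back the use of pyruvate, Ucp3 of the mitochondrial inner membrane, Angptl4, an inhibitor of lipoprotein lipase, and Acot1, a thioesterase of acyl-CoA.

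All 14 arrays had been scaled to the same trimmed mean, and their median signals ran from 60.1 to 75.8. Signals have no unit, and the number of arrays, 7 per group in every value given here, limited the precision. The 10 defining markers of cardiomyocytes, among them Myh6, Myl2 and Tnnt2, had mean signals from 5476 to 17683, so the tissue label matched them. Array 7 of the treated controls stood apart from the other 13 in 3 respects. It lay at 79.7 on the first principal component, which held 17.0% of the variance of 25789 probe sets, and the others lay from -28.8 to 18.0. Its rank correlation with its own group was the lowest, at 0.926, and its ratio of the 3' to the 5' actin control signal, a sign of RNA quality, was 1.82. That ratio was 1.25 ± 0.12 (SD) in the untreated and 1.39 ± 0.21 in the treated group. Signals of Xist and Eif2s3y marked 2 females among the untreated and 3 among the treated samples. The part of RNA quality and sex in the results was not tested beyond the fits with a sex covariate and without single arrays.

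With WY14643, no single gene of the control heart passed the test over the whole array. Of 45037 probe sets, the sets of short probes that each read 1 or more transcripts, 0 (0%) had a limma adjusted p under 0.05. The lowest adjusted p was 0.187, for Slfn3. Without adjustment, 3038 probe sets (6.75%) had a p under 0.05 by limma, of which 1075 (2.39%) were higher and 1963 (4.36%) lower with WY14643. The split depended on the scaling. Higher signals made up 35.4% of these 3038, against 50.1% of 2800 after quantile normalization and 62.8% of 2937 after centring each array on its median. The 7 treated and 7 untreated arrays did not overlap at all for 39 probe sets (0.0866%), 24 higher (0.0533%) and 15 lower (0.0333%). Adjusted calls appeared in 3 other settings. Slfn3 passed when 16 was added to each signal, and with the replicate number as a block. Slfn3, Fry and 1 probe set without a single gene symbol passed when only the 14 arrays were fitted. In the text that follows, differences are log2 values of treated minus untreated with limma's standard error, and an unadjusted p is limma's p before adjustment. No gene named below passed the adjusted test in the fit of all 28 arrays, so their values are given as measured differences.

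The probe sets with the lowest p among those brighter with WY14643 belonged to 11 genes with varied roles, among them a scaffold protein, a proteasome subunit, a lipid kinase and transcription factors. Homer2 (1424367_a_at), a scaffold protein that links receptors to calcium stores, had signals from 1114 to 1561 (median 1215) without WY14643 and from 1432 to 1837 (median 1723) with it. The groups met only at 1 treated array, and 6 of 7 treated arrays lay above all untreated ones. The difference was 0.42 ± 0.09, with an unadjusted p of 9.95e-05 and a limma adjusted p of 0.628, which was the adjusted p of each of the 24 probe sets described here apart from Slfn3. Psmb6 (1448822_at), a catalytic subunit of the proteasome, had signals from 1849 to 2255 (median 1914) without WY14643 and from 2269 to 2926 (median 2426) with it. No treated array reached down to the untreated ones, and treated array 7 was the brightest. Its difference was 0.31 ± 0.08. Nsfl1c (1429328_at), a cofactor of the segregase VCP, had signals from 1239.6 to 2090.3 (median 1693) without WY14643 and from 1937 to 2440.2 (median 2221) with it, a difference of 0.44 ± 0.10.

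Pik3ca, the catalytic subunit of a lipid kinase in insulin signalling, had 1 of 6 probe sets among these. That set (1460326_at) had signals from 478 to 538 (median 489) without WY14643 and from 547 to 736 (median 609.6) with it with no overlap, a difference of 0.29 ± 0.07. The other 5 probe sets of Pik3ca stood below 0, from -0.78 to -0.07, so the gene's probe sets disagreed in sign. Focad (1435209_at), a focal adhesion protein, had signals from 170.1 to 217 (median 196) without WY14643 and from 236 to 306 (median 249) with it. Again no arrays overlapped, and treated array 1 was the brightest at 306. The difference was 0.38 ± 0.10.

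Several of the probe sets were dim or stood alone among those of their gene. Magea7-ps (1422423_at), a pseudogene, had signals from 38.2 to 138 (median 96.1) without WY14643 and from 139 to 178 (median 164) with it and a difference of 1.00 ± 0.23. The lowest treated array and the highest untreated array were almost level there, without crossing. Atf4, a transcription factor of the stress response, stood at 0.90 ± 0.22 on 1438992_x_at, but at 0.16 ± 0.13 on its brightest probe set. St8sia2, a sialyltransferase, stood at 1.37 ± 0.33 on 1449843_at and at -0.13 ± 0.19 on its other one. Cog8, a Golgi tethering subunit, stood at 0.73 ± 0.20 on 1447860_x_at, and at 0.10 ± 0.08 and 0.00 ± 0.09 on 2 brighter ones. Cycs, cytochrome c, stood at 0.69 ± 0.18 on the dim 1445484_at, while its 3 bright probe sets stood at 0.11 to 0.18. Fry (1458985_at) had signals from 11.9 to 15.8 (median 13.1) without WY14643 and from 34.1 to 72.8 (median 44.9) with it and a difference of 1.83 ± 0.39, and its brightest probe set stood at -0.08 ± 0.08.

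Sox4 was the gene whose probe sets stood together most clearly on the higher side. It encodes a transcription factor of the SRY-box family that is active in the developing heart. Its brightest probe set (1433575_at) had signals from 992 to 2042 (median 1311) without WY14643 and from 1995 to 5086 (median 2112) with it. A single untreated array reached into the treated range, and 5 of 7 treated arrays lay above all the untreated ones. The difference was 0.99 ± 0.26, and a second probe set (1419156_at) stood at 1.19 ± 0.29. In all, 5 of its 8 probe sets had an unadjusted p under 0.05, every one of them higher, with a mean difference of 1.01. The 3 others stood at -0.89, -0.76 and 0.10 and were dim. Across the same 5 probe sets the mean difference with WY14643 in del337TR hearts was 0.01.

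Among the probe sets dimmer with WY14643, Slfn3 stood farthest from 0. Slfn3 is a member of the schlafen family, which is known from lymphocyte growth control. Its probe set (1421644_at) had signals from 57.1 to 179 (median 83.5) without WY14643 and from 2.6 to 10.3 (median 6.0) with it. All treated arrays lay far below all untreated ones, and the treated values were near the lower end of the array's range. The mean signal was 102 ± 44.2 (SD) without and 6.19 ± 3.07 with WY14643, and the difference was -4.10 ± 0.71 on the log2 scale. With 16 added to each signal it was -2.35 ± 0.20 with a limma adjusted p of 2.34e-07, and the adjusted p over the 24 other settings and omissions ran from 2.34e-07 to 0.604. The untreated controls were the only group with such signals: the 14 del337TR arrays and the 7 treated controls, 21 arrays in all, ran from 0.6 to 22.0. The labels give neither litter nor strain background, so whether this difference goes with WY14643 or with some other property of the untreated control samples cannot be told apart. The untreated controls lay apart from all 21 other arrays for only 1 more of the 45037 probe sets, Gskip (2 in all, 0.00444%). Of the other 6 schlafen genes measured, Slfn1 stood at -0.80 ± 0.30 and the remaining 5 between -0.13 and 0.27.

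Gskip (1435423_x_at), which binds the kinase GSK3B, had signals from 457 to 643 (median 502) without WY14643 and from 313 to 439 (median 377) with it. There was no overlap, and the difference was -0.47 ± 0.10, while the 3 other probe sets of the gene stood at -0.27 to -0.07. Htr7 (1435332_at), a serotonin receptor, had signals from 87.2 to 108 (median 98.2) without WY14643 and from 48.3 to 77.9 (median 60.1) with it. All treated arrays were below all untreated ones, a difference of -0.68 ± 0.16. Sema6c (1423454_a_at), a transmembrane semaphorin, had signals from 82.8 to 157 (median 93.1) without WY14643 and from 32.5 to 64.4 (median 47.3) with it with no overlap and a difference of -1.02 ± 0.26. The far brighter probe set of Sema6c (1451898_a_at) stood at -0.14 ± 0.18, so this difference was not seen on the gene's main signal.

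The other dimmer probe sets overlapped between the groups by at least 1 array. Kdelr3 (1418538_at), a receptor that returns proteins to the endoplasmic reticulum, had signals from 168 to 289.9 (median 226) without WY14643 and from 88.6 to 195 (median 138) with it and a difference of -0.71 ± 0.18. Arid4b (1460384_a_at), a chromatin factor, stood at -0.76 ± 0.18, Gmcl1 (1417113_at) at -0.38 ± 0.10 and Pgghg (1423765_at), a glucosidase of collagen sugars, at -0.62 ± 0.16. Tceanc2 (1431067_at) stood at -0.85 ± 0.21, Gm7008 (1431737_at) at -0.78 ± 0.20 and 4930552P12Rik (1460507_at) at -0.93 ± 0.21. All of these read dim signals. Ptprf (1420843_at), a receptor tyrosine phosphatase, stood at -1.25 ± 0.32, with all 3 of its probe sets below 0 at an unadjusted p under 0.05.

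**Figure D1:**
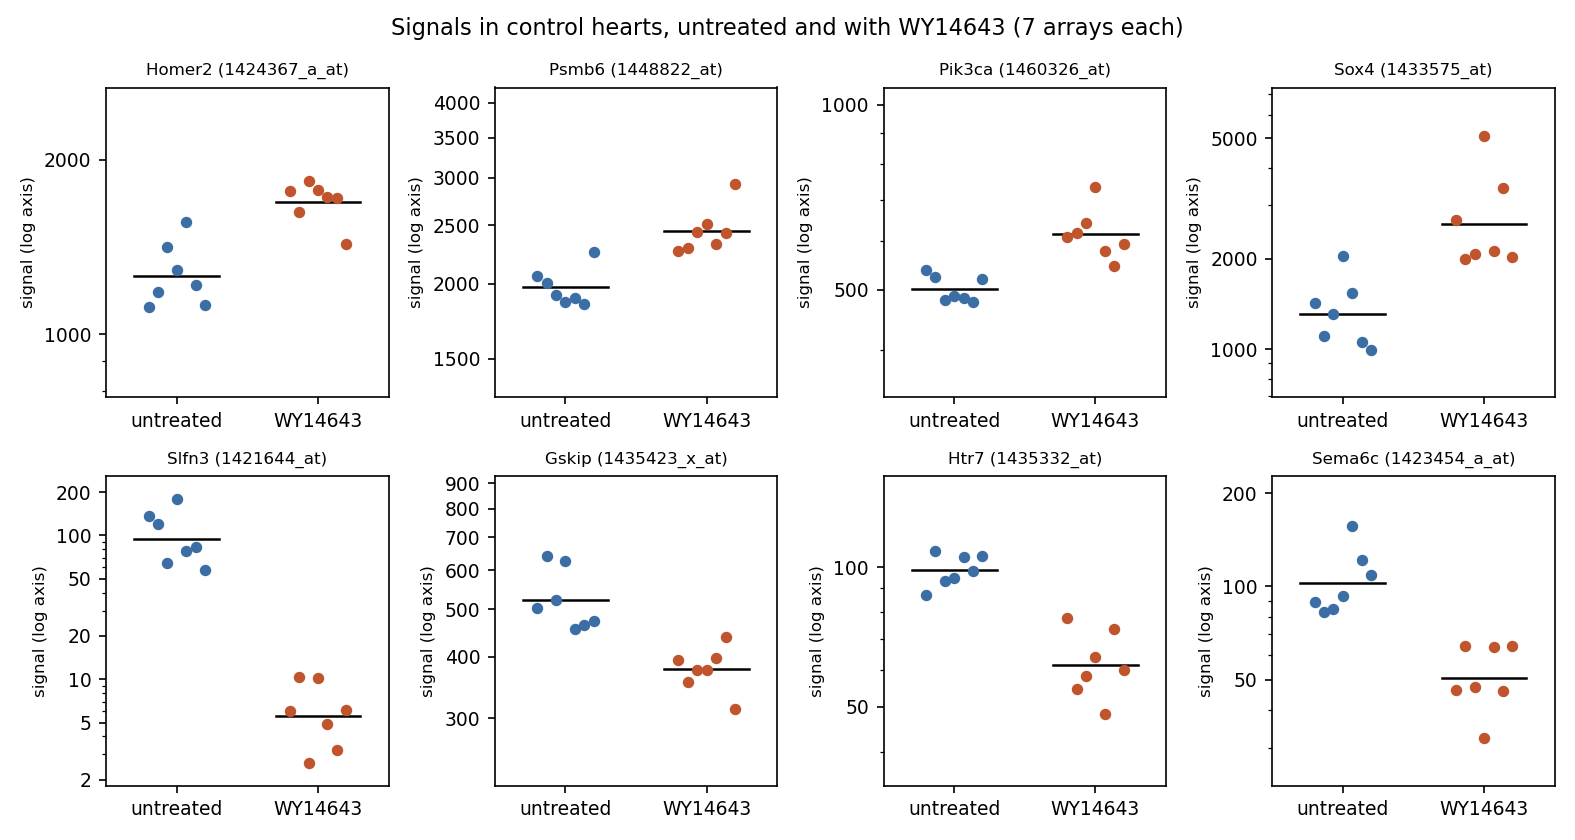
Signal of 8 probe sets in untreated control hearts (blue) and control hearts with WY14643 (orange), each point 1 array and the bar the mean of log2 signals, on a log axis that differs between panels. Homer2, Psmb6, Pik3ca and Sox4 lie higher with WY14643 and Slfn3, Gskip, Htr7 and Sema6c lower. In 6 of the 8 panels, all but Homer2 and Sox4, the groups do not overlap. The panels were picked from the probe sets with the lowest p on these arrays. Over all 45037 probe sets the groups did not overlap for 39 (0.0866%).

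The direction of the differences went with brightness. Among the 1043 genes with a mean signal of at least 2000, 827 (79.3%) were higher with WY14643, with a median difference of 0.09, and 126 of them were higher and 8 lower at an unadjusted p under 0.05. For genes from 500 to 2000 the share was 54.3% and the median 0.01, and from 50 to 500 it was 38.1% with a median of -0.05. Under 50 it was 43.4% with a median of -0.08. After quantile normalization the medians of the 4 ranges were 0.00, 0.01, -0.00 and -0.01, and of the 1043 bright genes 527 were higher, 25 higher and 29 lower at that p. Over all 18193 genes, each read by its brightest probe set, the median was -0.03, and 461 (2.53%) were higher and 836 (4.6%) lower at an unadjusted p under 0.05.

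**Figure D2:**
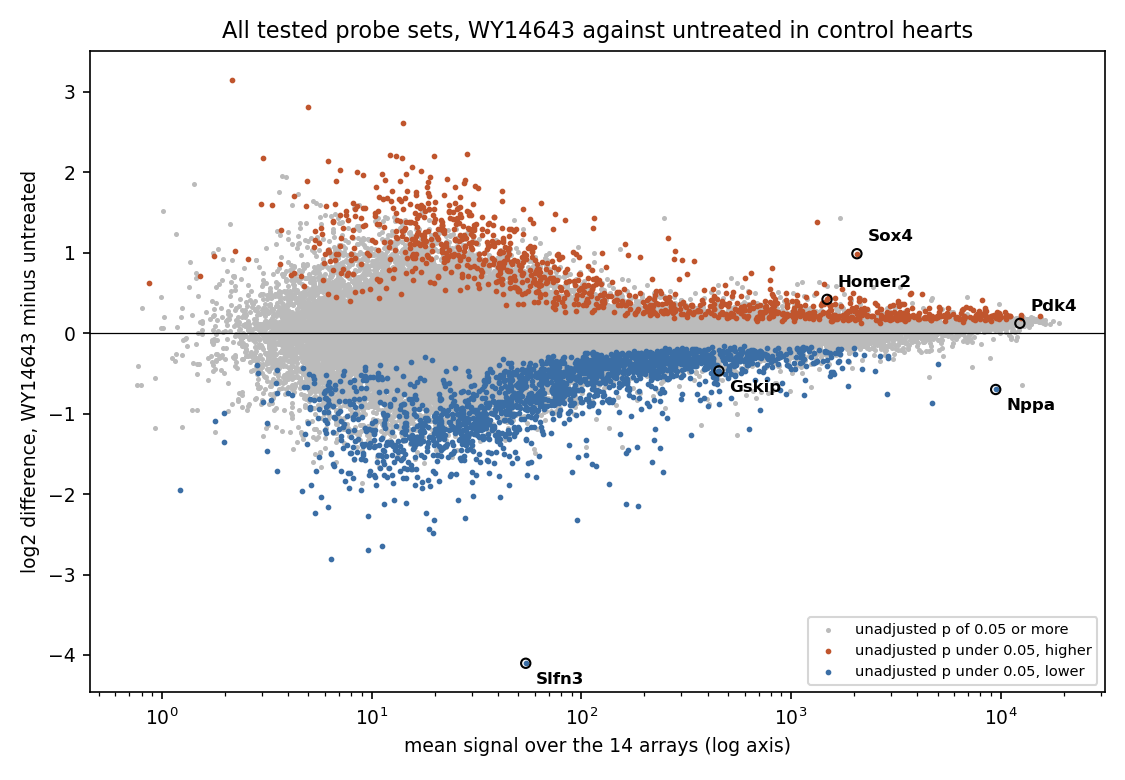
Log2 difference of WY14643 minus untreated controls against the mean signal of the 14 arrays (log axis), 1 point for each of 45037 probe sets, with the 1075 higher and 1963 lower at an unadjusted limma p under 0.05 in orange and blue. The cloud of bright probe sets on the right lies above 0, and Slfn3 lies alone at -4.10.

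Genes with several probe sets gave a second view of the same arrays. At an unadjusted p under 0.05, 229 genes had 2 or more probe sets, of which 192 had them all on 1 side (52 higher, 140 lower) and 37 on opposite sides. Of all 45037 probe sets 1075 (2.39%) were higher and 1963 (4.36%) lower at that p, a split that depended on the scaling. The count was not set against the number of genes that the array reads by 2 or more probe sets. The mean differences here and on the lower side cover only the probe sets under that p, and leave out a gene's other probe sets. After Sox4, the higher genes with the lowest second p were Zdhhc14, a palmitoyltransferase, and Rbm39, a splicing factor. Their means were 0.40 over 3 of 6 probe sets and 1.05 over 3 of 12. Then came Ndufs8 (3 of 6 probe sets) and Ndufb7 (2 of 2) of respiratory complex I at 0.29 and 0.23. Cox8a (2 of 3) of cytochrome oxidase stood at 0.30, and Idh3a (3 of 4) of the citric acid cycle at 0.27. Pgk1 (2 of 3) of glycolysis stood at 0.22, the RNA helicase Dhx30 (2 of 4) at 0.41 and the co-chaperone Dnaja2 (2 of 4) at 0.27. These metabolic genes were bright. Ndufs8 (1455283_x_at), for example, had signals from 5170.2 to 7891 (median 6314) without WY14643 and from 7007 to 10051 (median 7545) with it. Of the untreated arrays 6 of 7 lay below all treated ones, and untreated array 7, the brightest, lay within the treated range.

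On the lower side Rftn2, a raftlin of membrane rafts, had a mean difference of -1.32 over 2 of its 3 probe sets. Fmo5, a flavin monooxygenase, stood at -0.52 over all 3 of its probe sets and Mtus1, a microtubule-associated protein, at -0.40 over all 3 of its own. The brightest of the 3 of Fmo5 (1450332_s_at) had signals from 168 to 367 (median 269) without WY14643 and from 148 to 284 (median 219) with it. For Mtus1 (1436501_at) they ran from 1250.0 to 2099.9 (median 2041) without WY14643 and from 917 to 1684 (median 1351) with it. Treated and untreated arrays overlapped in both. Grk3 (2 of 3 probe sets), a kinase that desensitises receptors, stood at -0.61, Pbxip1 (2 of 2) at -0.37 and the cilium protein Ift80 (2 of 2) at -0.58. The acetyltransferase subunit Naa35 (4 of 7) stood at -0.31. Slc38a9 (2 of 7), the lysosomal amino acid sensor, stood at -0.79, Spats2l (2 of 4) at -0.68 and Arid4b (3 of 6) at -0.57.

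Of the known targets of PPARalpha, Pdk4, Fabp3 (1416023_at), Acadm and Cd36 stood between -0.00 and 0.13, and others lay farther from 0 on both sides with wider errors. Pdk4 (1417273_at) had signals from 10663 to 13558 (median 11731) without WY14643 and from 12685 to 12955 (median 12902) with it. The treated arrays lay within the upper part of the untreated range and close to each other, with an SD of 104 against 916. The difference was 0.12 ± 0.09, and it was -0.02 ± 0.07 after quantile normalization. Fabp3, the heart fatty acid binding protein, stood at 0.13 ± 0.10 on 1416023_at and Acadm, medium-chain acyl-CoA dehydrogenase, at 0.10 ± 0.09. Both turned to values just below 0 with quantile normalization, -0.01 and -0.03. Cd36, the fatty acid transporter, stood at 0.03 ± 0.11, 0.05 ± 0.08 and -0.00 ± 0.07 on its 3 probe sets.

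Ucp3 (1420658_at) had signals from 179.8 to 649.8 (median 507) without WY14643 and from 346 to 1327 (median 460.1) with it. Treated arrays 1, 4 and 7 were above all untreated arrays, and the other 4 lay among them. The difference was 0.52 ± 0.33, and the second probe set of Ucp3 stood at 0.40 ± 0.28. Angptl4 (1417130_s_at) had signals from 174 to 2273 (median 1008) without WY14643 and from 208 to 802 (median 692) with it. The treated range lay inside the untreated one, with a difference of -0.71 ± 0.46, while Angptl4 stood at 0.0049 on 1453410_at. Acot1 stood at -0.24 ± 0.24 and Plin2, a coat protein of lipid droplets, at -0.10 ± 0.19. Cyp4a14, a fatty acid hydroxylase known from the liver, had signals of 51.2 or less and stood at -0.92 ± 0.63.

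The receptors were also read. Ppara stood below 0 on its 3 probe sets, at -0.22 ± 0.15, -0.23 ± 0.18 and -0.32 ± 0.20, with unadjusted p values of 0.155, 0.207 and 0.125. The partner receptor Rxra stood at 0.01 ± 0.12 on its brightest probe set. Ppard (1439797_at), the receptor delta, had signals from 139 to 248 (median 149) without WY14643 and from 178 to 382 (median 220.3) with it and a difference of 0.44 ± 0.18. Only 1 treated array lay above all untreated ones. Thra, thyroid hormone receptor alpha, stood at -0.44 ± 0.16 and -0.48 ± 0.22 on 2 probe sets and at -0.03 ± 0.12 on the brightest, and Thrb at -0.18 ± 0.15.

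On the list of PPAR targets of lipid uptake, storage and fuel switching, 12 of 20 measured genes were higher, with a median of 0.07 against -0.03 for all genes, but after quantile normalization 8 of 20 were higher and the median was -0.06. At an unadjusted p under 0.05, where 2.53% of all genes were higher and 4.6% lower, 0 were higher and 1 lower. That gene was G0s2 (1448700_at), an inhibitor of the triglyceride lipase Pnpla2, with signals from 284 to 767 (median 454) without WY14643 and from 137 to 416 (median 261) with it. Of the treated arrays 5 of 7 lay below all untreated ones, and the difference was -0.83 ± 0.33. Pnpla2 itself stood at 0.10 ± 0.08. Lpl, lipoprotein lipase, stood at 0.17 ± 0.11 and Vldlr at 0.18 ± 0.10. Of 16 genes of peroxisomal and microsomal fatty acid oxidation 8 were higher, with a median of 0.01 and 1 at an unadjusted p under 0.05, the peroxisomal transporter Abcd3 (0.24 ± 0.10). Pex11a, a peroxisome proliferation gene, stood at 0.22 ± 0.12.

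Genes of mitochondrial fuel use were bright and stood higher by small amounts, next to 79.3% higher among all genes with a mean signal of at least 2000. All 39 measured genes of the respiratory chain and ATP synthase were higher, with a median of 0.16 and 9 at an unadjusted p under 0.05. The gene with the lowest p was Cyc1 (1416604_at), cytochrome c1 of complex III, with signals from 8065 to 10465 (median 9899) without WY14643 and from 10131 to 14731 (median 10758) with it. There 6 of 7 treated arrays lay above all untreated ones, a difference of 0.27 ± 0.10. After quantile normalization 30 of the 39 were higher, the median was 0.03 and 0 had an unadjusted p under 0.05. All 18 genes of mitochondrial fatty acid oxidation were higher, with a median of 0.10 and 2 at that p. They were Acadvl, very long-chain acyl-CoA dehydrogenase (0.24 ± 0.08), and Etfb, an electron carrier subunit (0.22 ± 0.09). After quantile normalization 11 of 18 were higher, with a median of 0.01 and 0 at limma's unadjusted p under 0.05, Acadvl (0.12) and Etfb (0.09) included.

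The citric acid cycle and pyruvate oxidation list had 19 of 21 genes higher (median 0.12, or 0.02 after quantile normalization). Its exceptions included Pdk1, a pyruvate dehydrogenase kinase like Pdk4, at -0.31 ± 0.14. Glucose uptake, glycolysis and glycogen genes were higher for 17 of 20, with a median of 0.10 that was 0.01 after quantile normalization. For ketone, lactate and amino acid use it was 10 of 12 with a median of 0.14, and Oxct1 (1449059_a_at), the enzyme that lets the heart burn ketone bodies, had 6 of 7 treated arrays above all untreated ones (0.20 ± 0.08). Ppargc1a (1437751_at), the coactivator PGC-1alpha, stood at -0.49 ± 0.23 with overlapping groups. For the mitochondrial ribosome 20 of 22 genes were higher both as scaled and after quantile normalization, with medians of 0.11 and 0.09. At an unadjusted p under 0.05, 4 and 2 were higher. Its median member had a signal of 1068. Of the 3222 genes from 500 to 2000, 1748 were higher as scaled and 1727 after quantile normalization, with 130 and 131 higher at that p. With WY14643 in del337TR hearts 7 of the 22 were higher, with a median of -0.01.

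The lipogenesis and sterol synthesis list had 11 of 16 genes higher (median 0.04) and 3 higher at an unadjusted p under 0.05, against 2.53% of all genes. Dgat2 (1422678_at), which makes triglyceride, had signals from 2039 to 3478 (median 3213) without WY14643 and from 2561 to 7587 (median 4194) with it. The untreated arrays all lay below 6 of the 7 treated ones, a difference of 0.51 ± 0.19. Dgat1 (1418295_s_at), the second enzyme of that step, stood at 0.22 ± 0.10, and Mlxipl (1419185_a_at), the glucose-responsive factor ChREBP, at 0.32 ± 0.12. After quantile normalization the 3 stood at 0.44, 0.25 and 0.37.

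Genes known to be induced by thyroid hormone were higher for 8 of 10, from -0.68 to 0.61 with a median of 0.20. At an unadjusted p under 0.05, 4 were higher. Among all genes 44.9% were higher, and 2.53% were higher at that p. The median member had a signal of 841. Of genes from 500 to 2000, 54.3% were higher, 130 of 3222 at that p. Of genes at 2000 or more, 79.3% were higher, 126 of 1043 at that p. After quantile normalization 8 of 10 were higher, with a median of 0.14 and 2 at that p, Hr and Thrsp. Klf9 (1428288_at), a transcription factor, had signals from 3459 to 4457 (median 3842) without WY14643 and from 4320.1 to 5342 (median 4696) with it, with 5 of 7 treated arrays above all untreated ones and a difference of 0.28 ± 0.11. The corepressor Hr stood at 0.61 ± 0.30, Thrsp, a lipogenic nuclear protein, at 0.47 ± 0.22 and Myh6, the fast myosin heavy chain, at 0.22 ± 0.11. Genes repressed by thyroid hormone were higher for 3 of 8, with a median of -0.07. With WY14643 in del337TR hearts 5 of the 10 induced genes were higher, with a median of 0.01.

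Of 16 genes of CCN and TGF-beta signalling 13 were lower, with a median of -0.10 and 3 lower at an unadjusted p under 0.05. Of all 18193 genes 10031 were lower, 4.6% at that p, and of the 8645 genes with signals from 50 to 500, where the median member lay at 375, 5349 were lower. Inhba (1422053_at), an activin subunit, had signals from 179 to 341 (median 205) without WY14643 and from 116 to 182 (median 161) with it. Nearly all treated arrays, 6 of 7, were below all untreated ones, a difference of -0.46 ± 0.16. Tgfb2 (1450922_a_at), a TGF-beta ligand, stood at -0.76 ± 0.29, with all 4 of its probe sets lower at that p, and Ccn2, a matricellular protein, at -0.87 ± 0.39. Of 27 extracellular matrix genes 23 were lower, with a median of -0.13 before and -0.12 after quantile normalization, but in limma's unadjusted test 0 members were under 0.05 before it in either direction, and 1, lower, after it. Fibroblast markers, read on the same arrays, were lower for 8 of 10 with a median of -0.16, and their part in these values was not tested. The collagens Col1a1 and Col3a1 stood at -0.33 ± 0.25 and -0.36 ± 0.24. Among fetal and hypertrophy genes 9 of 14 were lower, with a median of -0.11. Nppa, the atrial natriuretic peptide, stood at -0.70 ± 0.30, while Nppb, its B-type relative, stood at 0.45 ± 0.26. Nppa was also on the list of atrial markers, whose median was -0.24. The part of atrial tissue in its value was not tested beyond the fit with an atrial score.

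Channel and calcium genes were mixed. Of 17 measured, 12 were higher, with a median of 0.14 (0.05 after quantile normalization). Among all genes 44.9% were higher, and among those with a mean signal from 500 to 2000, 54.3%. Hrc (1419109_at), a calcium-binding protein of the sarcoplasmic reticulum, had signals from 4864 to 6905 (median 5829) without WY14643 and from 6328 to 8671 (median 6849.5) with it and stood at 0.30 ± 0.10. Kcnj2 (1450503_at), the inward rectifier potassium channel, had signals from 29.2 to 68.9 (median 45.3) without WY14643 and from 5.6 to 68.0 (median 9.7) with it. Treated arrays were spread over the whole range, 4 of them below all untreated ones, with a difference of -1.49 ± 0.58.

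Markers of other cells were read on the same arrays, because in bulk tissue fewer cells of a type and less RNA per cell cannot be told apart. All 10 cardiomyocyte markers were higher, with a median of 0.15 that was 0.00 after quantile normalization. Their summed signal ran from 112901 to 154641 without and from 130565 to 164503 with WY14643. Fibroblast markers were lower for 8 of 10, with a median of -0.16 that was -0.18 after quantile normalization. Their summed signal ran from 21311 to 27775 and from 20261 to 26949, so the groups overlapped almost wholly. Endothelial markers were lower for 8 of 12 (sums from 7769 to 9122 and from 7806 to 9907), and leukocyte markers for 8 of 11 (sums from 4755 to 6320 and from 4499 to 7182). Atrial markers were lower for 5 of 8, and the atrial light chain Myl4 ran from 106.9 to 9489 and from 134.4 to 8125 over single arrays. Next to these counts, 10031 of all 18193 genes were lower, and 827 of the 1043 genes with a mean signal of at least 2000 were higher. The part of these cells in the results was not tested beyond the fit with an atrial score, in which 0 probe sets had a limma adjusted p under 0.05 and 3301 were under 0.05 before adjustment.

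**Figure D3:**
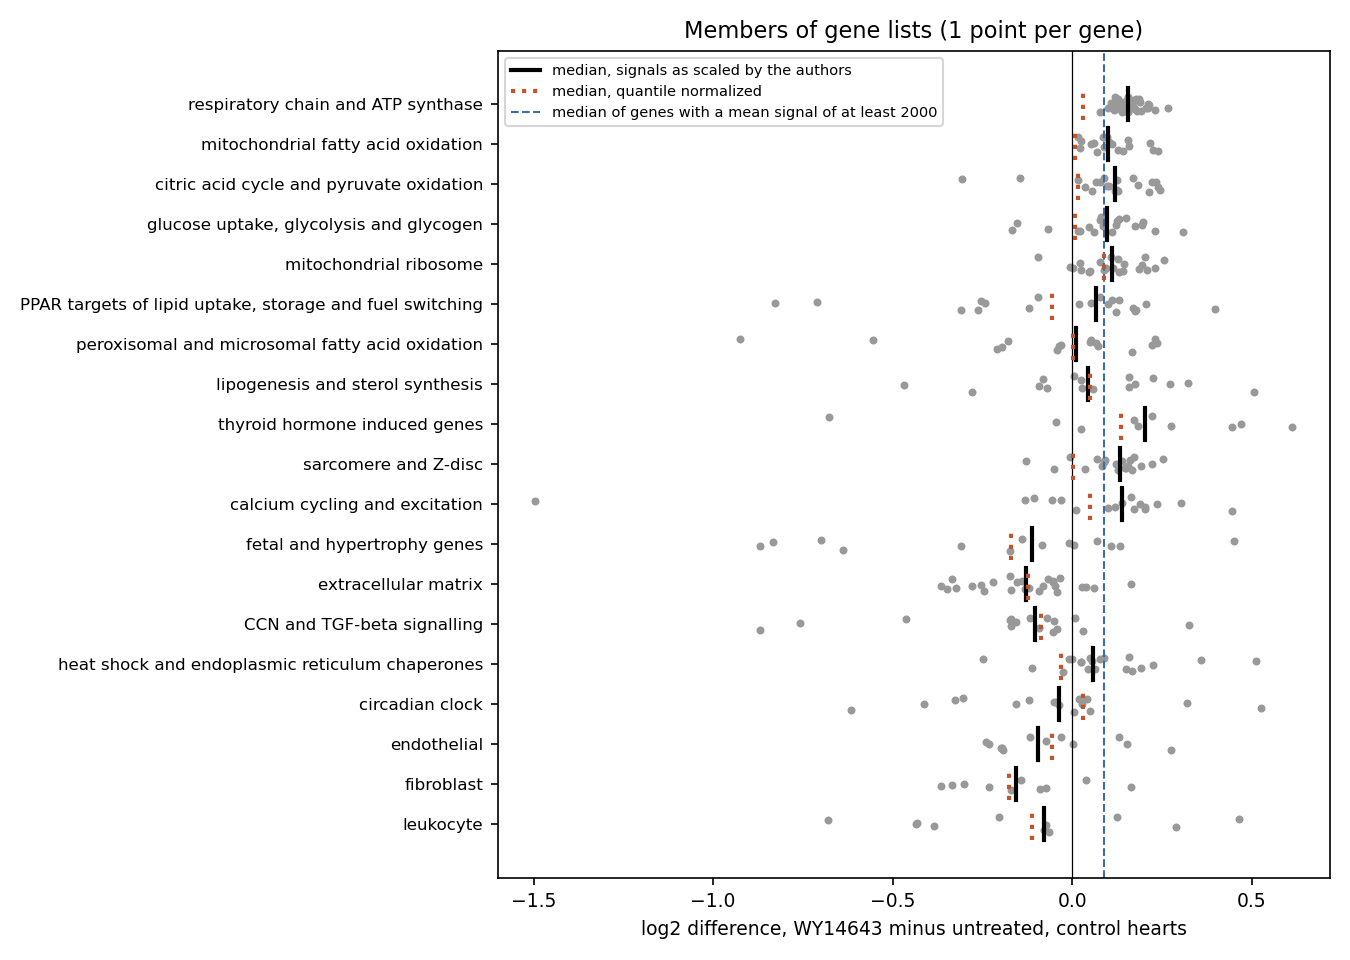
Log2 difference of WY14643 minus untreated controls for the members of 19 gene lists (grey points, 1 per gene), with the list's median as scaled by the authors (black) and after quantile normalization (orange dots), and the median of genes with a mean signal of at least 2000 (blue dashes, 0.09). Respiratory chain, fatty acid oxidation and sarcomere medians lie near the blue line and return to near 0 with quantile normalization, while matrix and fibroblast medians stay below 0. The medians of PPAR targets, heat shock genes and clock genes change sign.

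The treated arrays did not contribute evenly. Of the 1075 probe sets higher at an unadjusted p under 0.05, treated array 7 lay above all untreated arrays in 810 (75.3%), while treated array 5 did so in 353 (32.8%) and array 3 in 364 (33.9%). Of the 1963 lower ones, array 7 lay below all untreated arrays in 1266 (64.5%) and array 5 in 706 (36.0%). Over all probe sets array 7 was above the untreated range in 21.6%, and the other 6 treated arrays in 8.47% to 15.3%. Without array 7 the number of higher probe sets at that p was 781 in place of 1075.

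Several genes had treated arrays at both ends of their range. Ptprf (1420843_at) had signals from 111 to 264 (median 211) without WY14643 and from 39.0 to 254 (median 72.7) with it. Treated arrays 2 and 3 stood at 254 and 172, level with the untreated arrays, and the other 5 lay below all of them. Tgfb2 (1450922_a_at) had signals from 165 to 469 (median 364) without WY14643 and from 109 to 437 (median 156) with it. Treated arrays 2 and 3 lay among the untreated arrays and array 5 at 285, between untreated array 7 and the others. Treated arrays 1, 4, 6 and 7 lay below all untreated ones. Nppa and Ccn2 were low on those same 4 treated arrays, and untreated array 7 was also low for Ccn2 and Tgfb2. These 5 arrays were also those above 0 on the first principal component, at 11.2, 18.0, 15.5 and 79.7 for treated arrays 1, 4, 6 and 7 and 17.0 for untreated array 7, while the other 9 lay from -28.8 to -6.04. Their actin ratios of 3' to 5' signal were 1.32, 1.39, 1.43, 1.82 and 1.52 in the same order, and those of the other 9 ran from 1.18 to 1.36. The part of RNA quality in these differences was not tested. The labels give no reason to divide the treated samples. The 5 arrays were set apart from the other 9 only after their signals were seen. The first principal component was computed from signals of the same arrays, so it gives no separate evidence for this division. No test was made between the 5 and the 9.

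**Figure D4:**
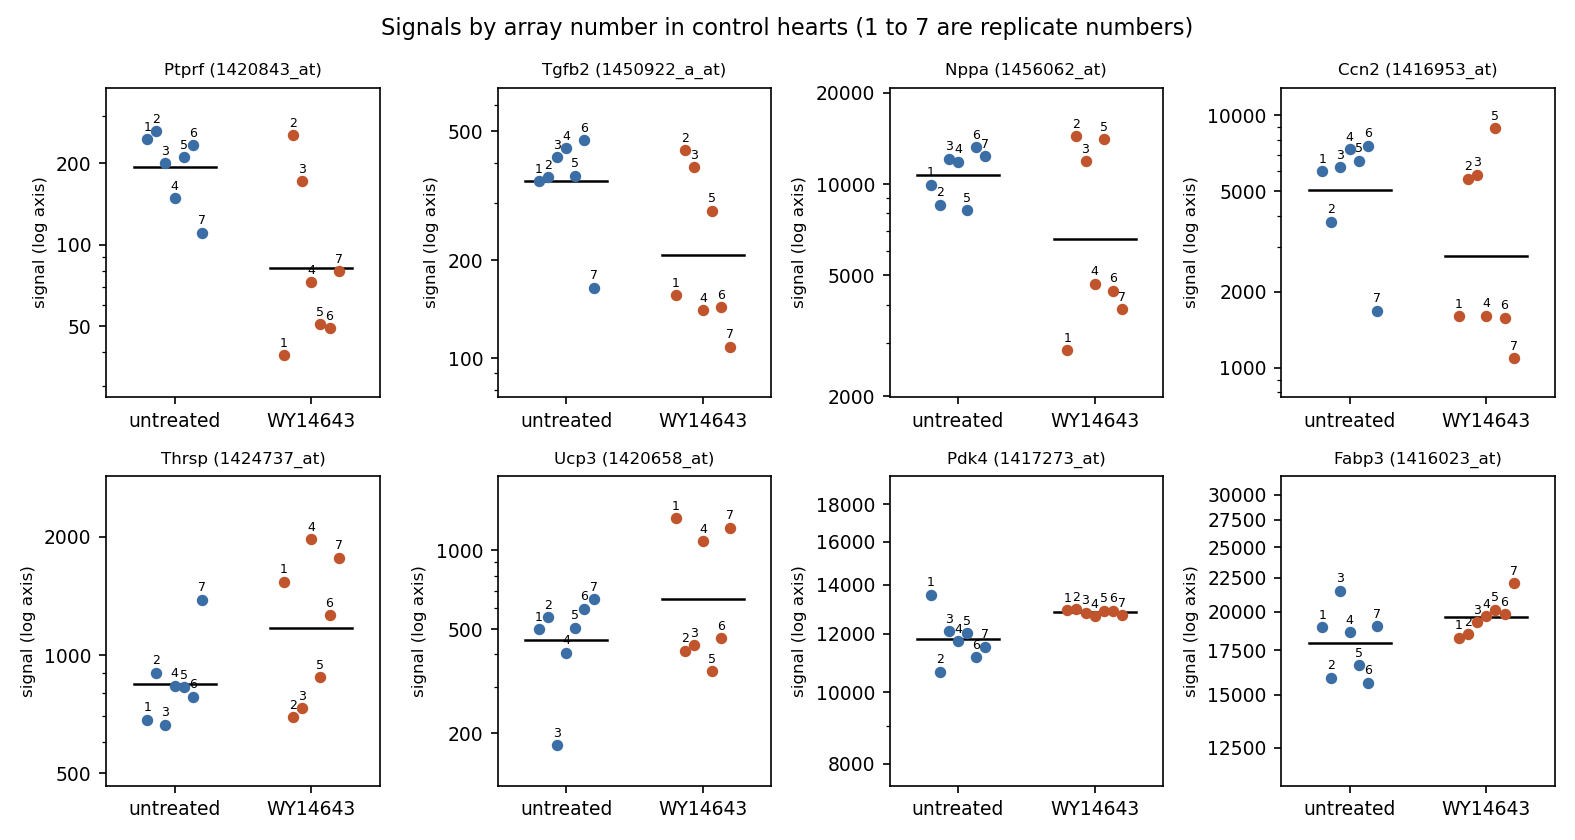
Signal by array number in untreated (blue) and treated (orange) control hearts on a log axis that differs between panels, with the bar at the mean of log2 signals. Treated arrays 1, 4, 6 and 7 lie low for Tgfb2, Nppa and Ccn2, treated arrays 1, 4 and 7 lie high for Ucp3, and the 7 treated arrays of Pdk4 lie within 12685 to 12955.

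The same treatment in del337TR hearts was read on 14 other arrays, so both comparisons share no sample. There 2601 probe sets (5.78%) were under 0.05 in limma's unadjusted p. In both strains 231 did, which is 7.60% of the 3038 in controls and 8.88% of the 2601 in del337TR. The direction was the same for 176 of them (62 higher, 114 lower) and opposite for 55. Over all 45037 probe sets the direction was the same for 52.8%. Of the 12 higher and 12 lower probe sets with the lowest p in controls, 4 and 10 had the same direction in del337TR, and only 1, that of St8sia2, had an unadjusted p under 0.05 there, on the opposite side. Its signals in del337TR ran from 32.6 to 99.1 (median 91.5) without WY14643 and from 19.8 to 66.0 (median 26.2) with it. The differences of WY14643 were -1.19 ± 0.33 in del337TR and 1.37 ± 0.33 in controls. The difference between them had an unadjusted limma p of 9.74e-06 and a limma adjusted p of 0.439. That low p is partly set by the choice, because these probe sets were picked by the difference in controls, which enters the comparison of strains. Of the 12 higher and 12 lower ones, 11 and 12 had an unadjusted limma p under 0.05 in it. No probe set passed the adjusted test of the difference between strains. In limma's unadjusted p 2207 of 45037 were under 0.05. The difference between strains has a wider standard error than either strain's own difference, for Slfn3 1.00 against 0.71. Its count can therefore not be set against the 3038 in controls and the 2601 in del337TR.

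A few genes were chosen after their values were seen, because they had an unadjusted p under 0.05 and the same direction in both strains and signals of at least 50. There were 87 such probe sets with 1 gene symbol, 25 higher and 62 lower. They are part of the 176 with the same direction among all 45037 probe sets. The highest was that of Mir22hg (1428562_at), the noncoding host gene of a microRNA. In controls its signals ran from 250.4 to 1656 (median 669) without WY14643 and from 909 to 3133 (median 1719) with it, and in del337TR from 257 to 1867 (median 778) without WY14643 and from 847 to 2592 (median 1942) with it. Treated arrays tended to the upper end in both strains but overlapped with untreated ones. The differences were 1.38 ± 0.38 and 1.12 ± 0.38. Akap13 (1440392_at), an anchoring protein for protein kinase A, stood at 0.88 ± 0.28 in controls and 0.86 ± 0.28 in del337TR, and the chromatin reader Brd2 (1437210_a_at) at 0.43 ± 0.16 and 0.45 ± 0.16.

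On the lower side G0s2, described above, stood at -1.20 ± 0.33 in del337TR, next to -0.83 ± 0.33 in controls. Vgll3 (1455299_at), a cofactor of TEAD transcription factors, stood at -0.62 ± 0.21 in controls and -0.83 ± 0.21 in del337TR. Fbxw7 (1451558_at), the substrate receptor of a ubiquitin ligase, stood at -0.45 ± 0.18 and -0.55 ± 0.18. For Ppp1r3b (1436590_at), a glycogen-targeting subunit of protein phosphatase, the values were -0.84 ± 0.32 and -0.79 ± 0.32, and for Omd (1418745_at), the matrix protein osteomodulin, -0.94 ± 0.37 and -1.21 ± 0.37. None had a limma adjusted p under 0.05 in controls, and no joint test over both strains was made.

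**Figure D5:**
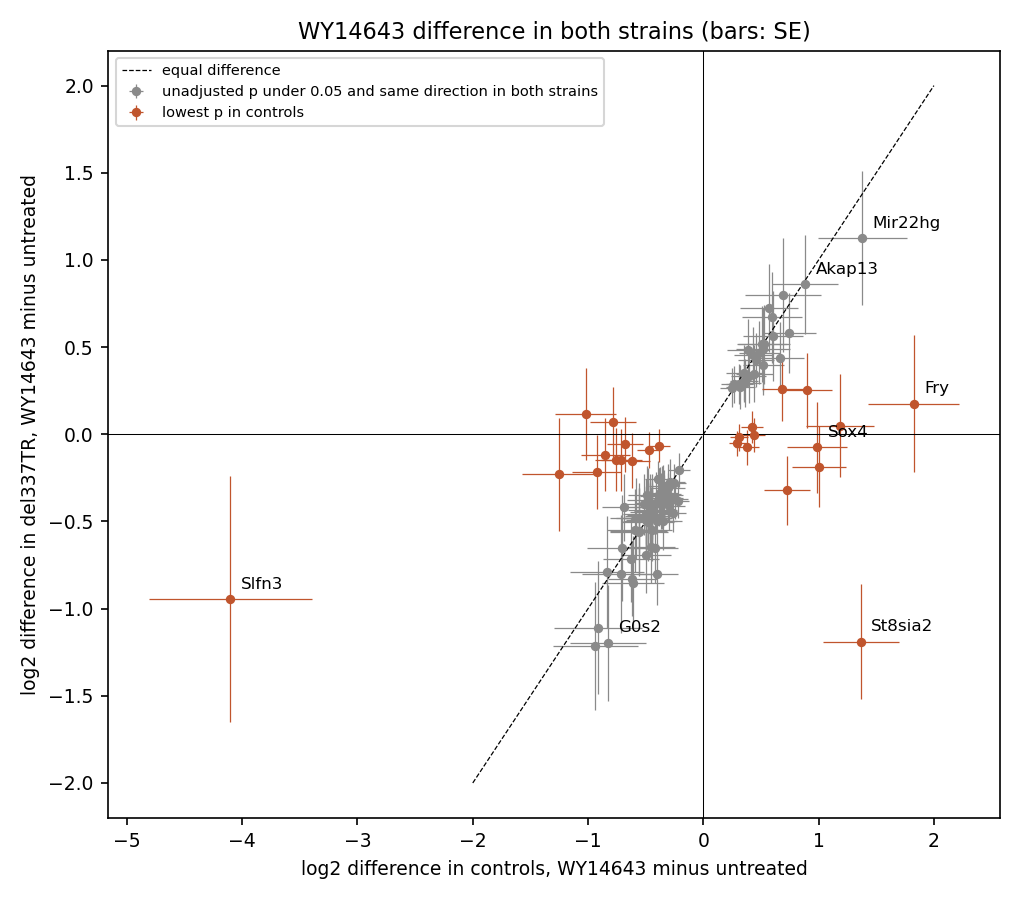
Log2 difference with WY14643 in del337TR (vertical) against that in controls (horizontal), with bars of 1 SE, for the probe sets with the lowest p in controls (orange) and the 87 with an unadjusted p under 0.05 and the same direction in both strains (grey, chosen by these values). The orange points lie near 0 on the vertical axis except those of Slfn3 and St8sia2, at -0.94 and -1.19.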

How the data were processed

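Total RNA of 28 samples of mouse heart, 1 array each, was hybridised after biotin labelling, per the labels. The deposited intensity values were linear, with 1 for every probe set of an array. The submitters' processing notes name RMA, but the values did not have its form: they were not on a log scale, and each array had a mean of 250.0 once 2% was trimmed from both ends. The software and its version are not stated in the labels, and log2 values had been assumed in the design.

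Of 45101 probe sets the 64 controls named AFFX were left out. Signals were floored at 0.1 (3 values were at 0) and log2 transformed. A model with 4 group means and no covariate was fitted by limma 3.58.1 (R 4.3.3) to the 28 arrays together, with eBayes moderation and 24 residual degrees of freedom. Tests were two-sided, and p was adjusted by Benjamini and Hochberg over 45037 probe sets with a threshold of 0.05. The fit was tested on simulated data. Nothing in the labels says that samples of a group came from separate animals, so p values measure the spread between these samples. No pair among 378 held identical values.

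Of the tested probe sets 34945 had 1 gene symbol in the probe annotation, naming 18193 genes, 932 had several and 9160 none. On lists each gene was read by its brightest such probe set. The 41 lists held 596 different genes, of which 541 were matched. Named were the 3 probe sets with the lowest p, the 12 higher and 12 lower with the lowest p at a mean signal of at least 50, and the 10 higher and 10 lower genes with several probe sets. The 3 members of each list with the lowest p, and known PPARalpha targets and receptors, were named too. Others are called chosen after their values were seen, or are list members, other probe sets of a named gene or genes that a named one acts on. Members, lists and rules were chosen with earlier results of these data known. Alternatives were another offset, a filter, other eBayes settings, array weights, quantile normalization, centring, the 2 groups only, a replicate block, sex, an atrial score and leaving out each array. Leaving out both arrays numbered 7 was added after the data were seen.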

Additional observations from a re-analysis of the deposited data

Results flagged for a closer look

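In 98 groups of 7 arrays, from 49 probe sets named by the lowest p or as PPARalpha targets and receptors, 11 had 1 array far from the other 6 on the log2 scale, where chance gives about 1 in 20. Array 7 of the treated controls was that array in 4 of them. It was high for Psmb6, at 2926 with the others from 2269 to 2512. It was low for Cd36 (1423166_at), at 4955 with the others from 7095 to 8721, for Rxra (1425762_a_at), at 26.7 with the others from 139.2 to 235.5, and for Thra (1443952_at), at 114.9 with the others from 182.6 to 249.3. Array 3 of the untreated controls was low in 4. It stood at 42.9 for Gm7008 with the others from 92.0 to 128.1, and at 179.8 for Ucp3 (1420658_at) with the others from 406.2 to 649.8. For Ppara it stood at 400.2 on 1439675_at with the others from 665.2 to 897.3, and at 694 on 1449051_at with the others from 1104 to 1386. The remaining 3 were Focad in treated array 1 (306.2, others from 236.4 to 260.6), Cyp4a14 in untreated array 7 (5.2, others from 20.9 to 51.2) and Plin2 in untreated array 6 (1159, others from 538 to 723.9).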

How the results depend on the processing

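For the 213 named probe sets, 2310 of 2325 values under 11 other settings kept their direction, as did 2941 of 2982 with 1 array left out. The 15 exceptions all lay near 0. They were Rxra (1430497_at) at -0.0074 with 16 added, and Cd36 (1450884_at) at 0.0062 with array weights, 0.059 with centring, 0.0022 with sex and 0.011 with the atrial score. With quantile normalization they were Apoa1 at 0.030, Acadm at -0.034, Fabp3 at -0.010, Pdk4 at -0.024 and Cd36 at -0.078 (1423166_at) and -0.090 (1450883_a_at). With centring they were Apoa1 at 0.020 and Thra (1454675_at) at 0.035, and without both arrays numbered 7 Angptl4 (1453410_at) at -0.046 and Thra (1454675_at) at 0.012. With 1 array left out the range crossed 0 for Rxra from -0.085 to 0.064 (1454773_at) and from -0.11 to 0.25 (1430497_at), and for Cd36 from -0.020 to 0.024 (1450884_at) and from -0.0029 to 0.13 (1423166_at). It also did for Apoa1 from -0.14 to 0.037, Alb from -0.10 to 0.14, Angptl4 (1453410_at) from -0.23 to 0.31, Plin2 from -0.16 to 0.020, Th from -0.23 to 0.14, S100b from -0.011 to 0.17 and Thra (1454675_at) from -0.064 to 0.014. The causes were not tested.

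The number of probe sets with a limma adjusted p under 0.05 was 1 with 16 added (Slfn3), 3 with only the 14 arrays in the fit and 0 in the other unpaired settings and without each array. With 16 added, the difference between strains also passed for 1 named gene, Slfn3 (2.15 ± 0.29, adjusted p = 0.0019), with none without each array. Unadjusted counts were 1845 higher and 1092 lower with centring. With 1 array left out they ran from 781 (without treated array 7) to 1342 higher and from 1528 (without untreated array 6) to 2259 lower (without treated array 5), and without both arrays numbered 7 they were 971 and 1841.

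The replicate numbers were not taken to pair the samples, since deviations of same-numbered arrays correlated by 0.0086 to 0.14, with only 2 of 7 pairs over 0.1. As a block, they gave 1 probe set with an adjusted p under 0.05 (Slfn3), 1138 higher and 1980 lower without adjustment, and 3 of 7 arrays correlated best with their own number. Signals under 50 had the widest spread, and the number of arrays limits what can be detected.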
